A study of Homo sapiens with 24 samples.

Results

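The genes described here are the tumour necrosis factor (TNF) ligands and receptors, 45 of the 20176 protein-coding genes in the GENCODE annotation of hg19. They were chosen by name: every gene whose symbol begins with TNFRSF or TNFSF, together with TNF, LTA, LTB, CD40, CD40LG, CD70, CD27, FAS, FASLG, LTBR, EDAR and NGFR. A region of changed chromatin accessibility was linked to a gene if it lay within 5 kb of one of its transcription start sites (TSS) or overlapped its body. By this rule 46 of the 26369 distinct regions in the series belonged to the superfamily, and 33 of the 45 genes (73.3%) had at least 1 of them, against 53.2% of all protein-coding genes. The ligands and receptors were shorter than genes in general, with a median length of 14525 bp against 27194 bp over all genes, and had a median of 2 annotated TSS, like all genes.

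The data were ATAC-seq, in which a transposase inserts adapters wherever DNA is open. OCI-LY3 and VAL, established human diffuse large B-cell lymphoma (DLBCL) lines, were exposed to 30 nM AZD4573, an inhibitor of the transcription elongation kinase CDK9, for 0, 3 or 8 h. Each of the 6 combinations of line and time had 4 libraries, 24 in all, and by the sample labels 2 of each 4 were made by the standard protocol from 50000 cells and 2 by Fast-ATAC from 5000 cells, whereas the written protocol gives 50000 cells for Fast-ATAC. The authors compared each treated time with 0 h of the same line, a control that their lists name DMSO, and the lists hold only the coordinates of regions called increased or decreased. No value per library was available here, so sequencing depth, the size of each change and the spread between libraries are unknown, and no test between samples could be made. A region that is missing from a list was not called at the authors' threshold, which does not show that it was unchanged.

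TNF ligands are mostly trimeric proteins on the cell surface, some of them shed, and their receptors signal by clustering. Receptors with a cytoplasmic death domain can recruit caspases, while others bind TRAF adaptors and activate NF-kB and MAP kinases. Decoy receptors bind ligand without signalling. In B cells, CD40, BAFF-R, TACI and CD27 carry signals for survival, germinal centre function and differentiation, and CD70 and TNF ligands are made by activated and malignant B cells. Accessibility at these genes is a property of chromatin and gives no level of RNA or protein.

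Windows at the centre of regions that were called in both lines at 8 h are printed first, because these are the places where the response of the superfamily was shared. Each is 200 bp of the plus strand of GRCh37 (hg19) in lower case, and capitals mark the only match to the motifs searched, an IRF core site read on the minus strand. The regions at the ligand genes TNFSF9 and LTB were called increased in all 4 comparisons, TNFRSF4 in 3 and TNFRSF13B in 2. TNFSF10 was called decreased in 2.
TNFSF9, chr19:6531105-6531304: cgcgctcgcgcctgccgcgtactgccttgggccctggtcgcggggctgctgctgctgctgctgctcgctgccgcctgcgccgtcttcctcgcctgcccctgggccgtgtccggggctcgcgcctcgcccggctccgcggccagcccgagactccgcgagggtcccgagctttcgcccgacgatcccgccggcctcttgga
LTB, chr6:31549397-31549596: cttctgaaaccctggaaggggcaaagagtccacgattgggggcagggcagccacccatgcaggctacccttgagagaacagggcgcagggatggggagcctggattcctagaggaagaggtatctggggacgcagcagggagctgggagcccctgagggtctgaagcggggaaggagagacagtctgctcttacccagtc
TNFRSF4, chr1:1151780-1151979: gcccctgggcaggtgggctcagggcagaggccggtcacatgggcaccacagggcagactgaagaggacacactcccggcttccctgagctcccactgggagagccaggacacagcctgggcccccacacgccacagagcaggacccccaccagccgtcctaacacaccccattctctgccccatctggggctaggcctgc
TNFRSF13B, chr17:16879197-16879396: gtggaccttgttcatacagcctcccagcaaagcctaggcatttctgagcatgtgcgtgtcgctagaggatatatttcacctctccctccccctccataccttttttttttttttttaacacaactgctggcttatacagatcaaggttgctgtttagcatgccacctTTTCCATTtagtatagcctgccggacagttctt
TNFSF10, chr3:172240828-172241027: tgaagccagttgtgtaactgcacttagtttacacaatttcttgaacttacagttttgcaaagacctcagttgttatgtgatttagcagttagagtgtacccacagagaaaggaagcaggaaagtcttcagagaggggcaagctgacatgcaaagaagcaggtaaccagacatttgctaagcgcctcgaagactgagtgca
The printed windows differed in base composition. The TNFSF9 window, over the first exon, had 77.0% GC and 30 CpG dinucleotides. The LTB and TNFRSF4 windows had 61.5% and 68.0% GC, with 4 CpG each. The TNFRSF13B window had 45.0% GC and 3 CpG, and the TNFSF10 window, the decreased one, 43.5% GC and 2 CpG.

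Most of the changes at TNF superfamily genes were gains of accessibility. Of the 46 regions, 38 were called increased in at least 1 comparison and 8 decreased. None was called in both directions, which was rare in the whole series too, at 194 of 26369 regions. Over the whole series, near genes or not, 13686 distinct regions were called increased and 12877 decreased. Of those linked by the same rule to any protein-coding gene, 10296 were increased and 6624 decreased, so gains also led there. Of the 33 genes with a region, 26 (78.8%) had increased regions only, against 65.9% of the 10739 genes with a region in the series. Of the others, FAS, TNFRSF21, TNFSF10 and TNFSF13B had decreased regions only, and TNFRSF11A, TNFRSF8 and TNFSF8 had one of each. These are 12.1% and 9.09% of the 33, against 24.1% and 9.99%. The remaining 12 genes, CD40LG, EDAR, FASLG, LTBR, TNFRSF10C, TNFRSF11B, TNFRSF17, TNFRSF19, TNFSF12, TNFSF14, TNFSF15 and TNFSF18, had no called region.

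**Figure D1:**
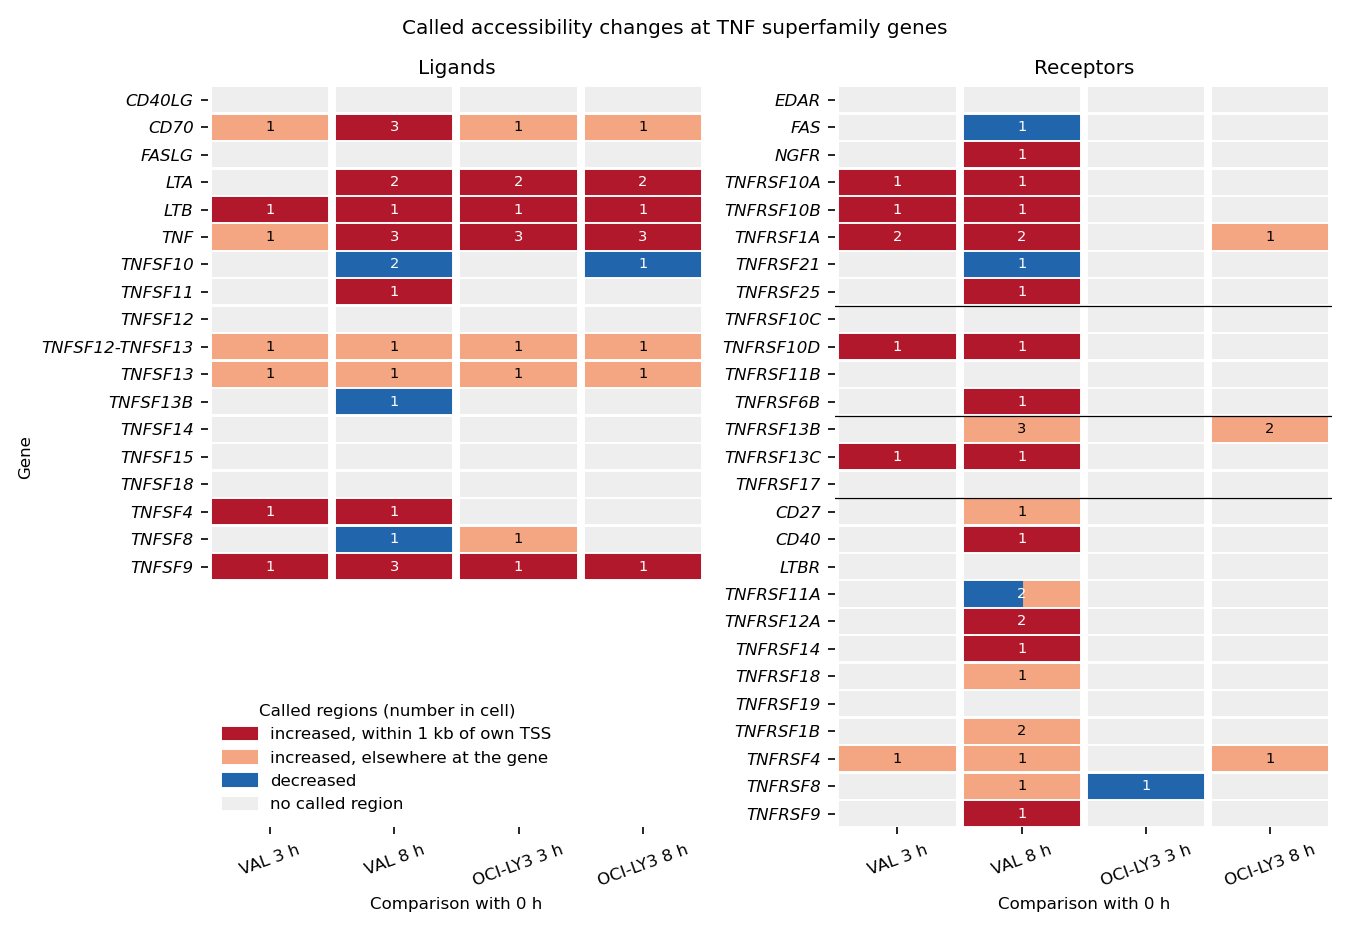
Each row is a gene and each column a comparison with 0 h. Dark red cells hold an increased region within 1 kb of the gene's own TSS, pale red cells an increased region elsewhere, blue cells a decreased region and grey cells none, with the number of regions in the cell. Lines divide the receptors into death domain, decoy, B cell survival and other receptors. CD70, LTB, TNF, TNFSF9 and TNFSF13 are red in all 4 columns, while most receptor cells are coloured in the VAL 8 h column.

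In VAL cells 13 of the 45 genes (28.9%) had an increased region after 3 h, against 15.2% of all protein-coding genes. After 8 h there were 28 (62.2%), against 34.6%. In OCI-LY3 cells the counts were 8 (17.8%) after 3 h, against 9.34% of all genes, and 10 (22.2%) after 8 h, against 17.0%. The share of superfamily genes with an increased region was thus above the background in VAL cells at both times, and closer to it in OCI-LY3 cells after 8 h. In OCI-LY3 cells after 3 h it was higher than the background but rested on 8 genes. Of these, TNFSF13 and TNFSF12-TNFSF13 share the same region. These shares are descriptions of a named list, with no test. Some genes are neighbours or share a region, so the genes are not independent. Joining regions less than 100 kb apart, the increased regions lay in 8 loci in VAL cells after 3 h, 21 in VAL cells after 8 h, and 4 and 6 in OCI-LY3 cells after 3 and 8 h.

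Decreased regions were counted in the same way. In VAL no superfamily gene had a decreased region at 3 h, against 4.23% of all genes, and 6 (13.3%) had one at 8 h, against 13.1%. In OCI-LY3 there was 1 gene at each time (2.22%), against 4.66% of all genes at 3 h and 7.40% at 8 h. Counting only regions within 5 kb of a TSS, the 8 h shares were 2.22% against 1.99% of all genes in OCI-LY3, and 4.44% against 5.07% in VAL. The order against all genes thus turned in both lines. In VAL it also turned with a distance of 10 kb, at 13.3% against 14.2%. Counted by region, 12 of 12 superfamily regions were increased in VAL cells after 3 h and 36 of 43 (83.7%) at 8 h, where 74.8% and 64.3% of the regions linked by the same rule to any gene were. In OCI-LY3 these were 7 of 8 (87.5%) at 3 h and 10 of 11 (90.9%) at 8 h, against 60.9% and 66.3%.

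**Figure D2:**
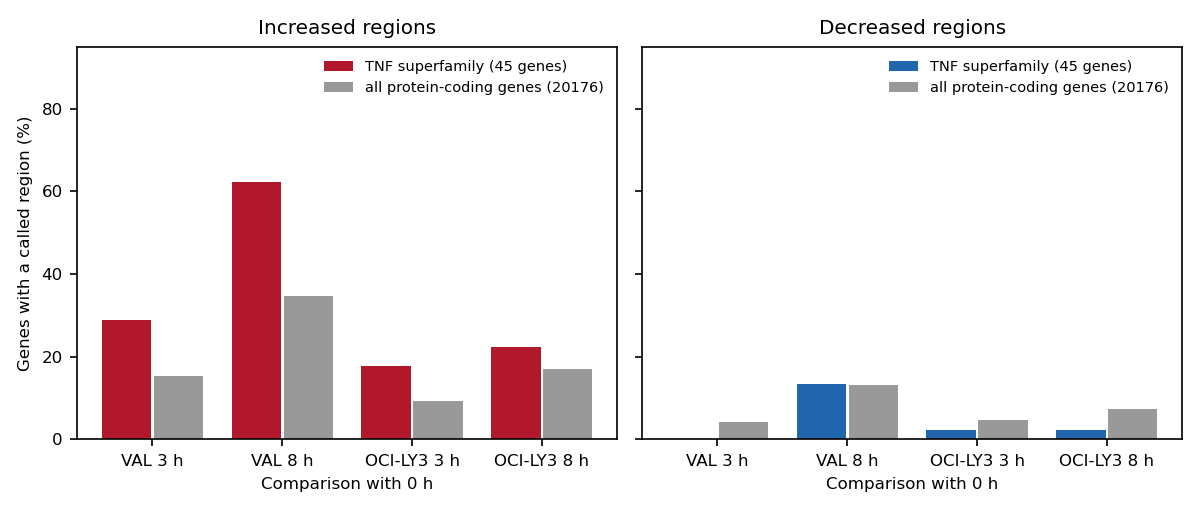
Bars give the percentage of genes with a called region in each comparison with 0 h, increased on the left and decreased on the right, for the 45 superfamily genes (coloured) and all 20176 protein-coding genes (grey). No error bars are drawn since values of single libraries were not available. The widest gap is for increased regions in VAL cells after 8 h, 62.2% against 34.6%, and the decreased bars for VAL cells after 8 h stand at 13.3% and 13.1%.

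The same held in part at promoters. An increased region lay within 1 kb of the gene's own TSS for 8 superfamily genes (17.8%) in VAL cells after 3 h, against 10.3% of all genes, and for 19 (42.2%) at 8 h, against 25.1%. In OCI-LY3 the promoters were those of LTA, LTB, TNF and TNFSF9 at both times, 4 genes (8.89%) against 5.91% at 3 h and 9.30% at 8 h. Across the series the chromosomes differed in direction, and on chromosomes 16, 17, 19 and 22 at least 96.9% of the regions called in VAL were increased, at either time. There were 11 superfamily genes on these 4 chromosomes. Over the other 34 genes, increased regions were found for 8 (23.5%) in VAL cells after 3 h against 10.2% of all genes on the same chromosomes, and for 20 (58.8%) at 8 h against 27.3%. In OCI-LY3 they were found for 4 (11.8%) at 3 h against 8.09%, and for 5 (14.7%) at 8 h against 13.9%.

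Of the 9 regions that were increased in both lines after 8 h, 6 lay at ligand genes. They include the TNFSF13 region, which also covers the TSS of another gene, SENP3. Of 18 ligand genes, 7 had an increased region in VAL cells after 3 h and 9 at 8 h, and 8 and 7 had one in OCI-LY3 cells after 3 and 8 h. The shares of all genes were 15.2%, 34.6%, 9.34% and 17.0% in the same order. In OCI-LY3 cells after 3 h all 8 superfamily genes with an increased region were ligands. Regions shared by the lines at 3 h could therefore only lie at ligand genes. The 3 h and 8 h lists of a line share its 0 h libraries, so their likeness is not independent, whereas the controls of the lines are separate.

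LTA, TNF and LTB lie side by side in the major histocompatibility region of chromosome 6. TNF encodes the founding cytokine of the family, and LTA and LTB encode lymphotoxins, which together shape lymphoid tissue. A region over LTB (chr6:31548232-31550760), which covers the whole gene and its TSS, was called increased in all 4 comparisons. Regions over the LTA TSS (chr6:31539562-31540745) and the TNF TSS (chr6:31542853-31544276) were called increased in OCI-LY3 cells after 3 and 8 h and in VAL cells after 8 h, and not in VAL cells after 3 h. At 3 h the TSS regions of all 3 genes were thus called in OCI-LY3, and that of LTB alone in VAL. By the 5 kb rule the TNF region counts for LTA as well, at 2787 bp from its TSS, the LTA region for TNF at 2597 bp, and the LTB region for TNF at 4713 bp. The TNF count in VAL cells after 3 h rests on this last region.

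TNFSF9, which encodes the 4-1BB ligand, and CD70, which encodes the ligand of CD27, lie near each other on chromosome 19. A region over the TNFSF9 TSS (chr19:6530429-6531980) was increased in all 4 comparisons. In VAL cells after 8 h it was joined by regions 1795 bp upstream and 4782 bp downstream of the TSS. At CD70 the region called in all 4 comparisons lay in an intron (chr19:6587061-6588778), 2372 bp downstream of the TSS. The CD70 TSS itself (chr19:6590198-6591684) and a region 12636 bp upstream of it were called increased only in VAL cells after 8 h. Of all regions on chromosome 19, 99.4% of those called in VAL cells after 8 h and 98.7% of those called in OCI-LY3 cells after 8 h were increased, so the direction at these 2 genes was also that of their chromosome. On chromosome 6, where LTA, TNF and LTB lie, 34.2% and 44.1% of all called regions, near a TSS or not, were increased in the same comparisons. The regions at those genes cover a TSS. Within 1 kb of a protein-coding TSS, 5048 regions of the series were called increased and 944 decreased.

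**Figure D3:**
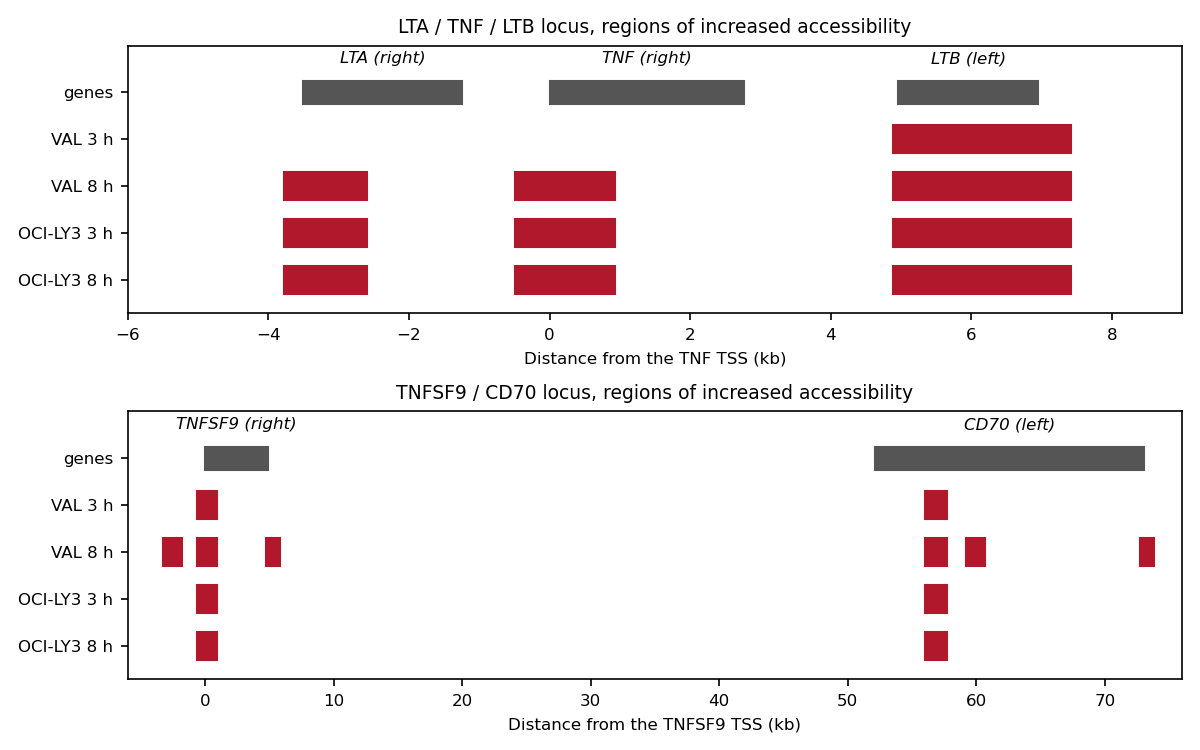
Grey bars are gene bodies, with the direction of transcription in brackets, and red bars are regions called increased in each comparison with 0 h. The horizontal axis is distance in kb from the TNF TSS (top) or the TNFSF9 TSS (bottom). In the upper panel the LTB region appears in all 4 rows and the LTA and TNF regions in 3, and in the lower panel 1 region at each gene appears in all 4 rows while VAL cells after 8 h has 3 at each.

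One further ligand region was called increased in all 4 comparisons. It covers the end of TNFSF13, the gene of APRIL, and of the read-through gene TNFSF12-TNFSF13 (chr17:7463829-7465906), but also the TSS of the neighbouring gene SENP3, and the data do not tell which gene it belongs to. TNFSF4 and TNFSF11 were called in VAL only. At TNFSF4, the gene of OX40 ligand, a region starting 4 bp from a TSS (chr1:173174701-173176103) was increased in VAL cells after 3 and 8 h. At TNFSF11, the gene of RANK ligand, the TSS region (chr13:43148257-43149339) was increased in VAL cells after 8 h.

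TNFSF10, TNFSF13B and TNFSF8 were the ligand genes with decreased regions. TNFSF10 encodes TRAIL, the ligand of the death receptors described below. Its TSS region (chr3:172239936-172241918) was decreased in both VAL and OCI-LY3 cells after 8 h, the only superfamily region called decreased in both lines, and an intronic region 9672 bp downstream was decreased in VAL cells after 8 h. TNFSF13B encodes BAFF, a survival factor for B cells, and its TSS region (chr13:108921145-108923155) was decreased in VAL cells after 8 h. TNFSF8, the gene of CD30 ligand, had an intronic region decreased in VAL cells after 8 h, 30610 bp from the TSS, and another increased in OCI-LY3 cells after 3 h, 9618 bp from it.

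Among the 8 death domain receptors, 5 had an increased region in VAL cells after 8 h and FAS and TNFRSF21 had a decreased one, where 34.6% and 13.1% of all genes did. TNFRSF10A and TNFRSF10B encode the TRAIL receptors DR4 and DR5. Their TSS regions (chr8:23081765-23083540 and chr8:22925129-22927328) were increased in VAL cells after 3 and 8 h and were not called in OCI-LY3. The TSS region of the adjacent decoy receptor gene TNFRSF10D (chr8:23018950-23021902) had the same pattern, while the decoy TNFRSF10C in the same cluster had no called region. On chromosome 8, 29.5% of all regions called in VAL cells after 8 h, near a TSS or not, were increased. Within 1 kb of a protein-coding TSS, where these receptor regions lay, 5048 regions of the series were increased and 944 decreased. In VAL cells after 8 h the TRAIL gene was called decreased. These receptor genes are paralogs, and the authors removed reads that aligned to more than 1 place. What this removed at the cluster was not tested.

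TNFRSF1A encodes TNFR1, the main receptor of TNF. Its TSS region (chr12:6450526-6451272) was increased in VAL cells after 3 and 8 h, and a region over an exon near its 3' end (chr12:6438867-6440121) in VAL cells at both times and in OCI-LY3 cells after 8 h. The TSS regions of TNFRSF25, the gene of DR3 (chr1:6525612-6526606), and NGFR, the gene of the p75 neurotrophin receptor (chr17:47572058-47574703), were increased in VAL cells after 8 h. FAS, the receptor of Fas ligand, had an intronic region decreased in VAL cells after 8 h, 5127 bp downstream of a TSS, and TNFRSF21, the gene of DR6, had one 66540 bp downstream. No death domain receptor had a region at its TSS called decreased, or any region called in OCI-LY3 other than that in TNFRSF1A. Of the decoy receptors, TNFRSF6B, which encodes DcR3, had an increased TSS region in VAL cells after 8 h (chr20:62327380-62328830), and TNFRSF11B had none.

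Of the receptors for BAFF and APRIL, TNFRSF13C, which encodes BAFF-R, had an increased TSS region in VAL cells after 3 and 8 h (chr22:42321463-42323423). TNFRSF13B, which encodes TACI, had no region within 1 kb of its TSS. It had 4 regions elsewhere, 2 of them intronic and increased in VAL cells after 8 h. A region 3505 bp upstream (chr17:16878937-16879655) was increased in both lines at 8 h, and one 2905 bp upstream in OCI-LY3 cells after 8 h. TNFRSF17, which encodes BCMA, had none. In VAL cells after 8 h the BAFF gene was called decreased and that of BAFF-R increased. Other ligand and receptor genes were called increased together in that comparison: TNF with TNFRSF1A, TNFSF4 with TNFRSF4, TNFSF9 with TNFRSF9, and CD70 with CD27. Whether the directions of ligands and receptors were related was not tested.

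Of the 12 costimulatory and other receptors, 10 had an increased region in VAL cells after 8 h, the longest list with 11121 increased regions, where 34.6% of all genes had one. In OCI-LY3 cells after 8 h, with 4367 increased regions, 1 had one, against 17.0% of all genes. At CD40 (chr20:44746472-44748277), TNFRSF14, the gene of HVEM (chr1:2486659-2488577), TNFRSF9, the gene of 4-1BB (chr1:8000565-8001423), and TNFRSF12A, the gene of the TWEAK receptor Fn14 (chr16:3070382-3071595), it lay at or within 1 kb of the TSS. TNFRSF12A had a further region that covers the TSS of HCFC1R1 and THOC6. The CD27 region overlaps the end of CD27 and covers the TSS of the next gene, TAPBPL. At TNFRSF18, the gene of GITR, TNFRSF1B, the gene of TNFR2, and TNFRSF8, the gene of CD30, increased regions lay 1561 bp or more from a TSS. TNFRSF11A, which encodes RANK, had an increased and a decreased region in its introns in VAL cells after 8 h. The gene of OX40, TNFRSF4, was the only one of the 12 called increased in OCI-LY3. Its region lay 1833 bp upstream of the TSS (chr1:1151366-1152393) and was increased in VAL cells after 3 and 8 h and in OCI-LY3 cells after 8 h. TNFRSF8 had an exonic region decreased in OCI-LY3 cells after 3 h, 16567 bp from a TSS.

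Sharing between lines was counted over regions with equal coordinates. At 3 h, 4 increased superfamily regions were called in both lines, 33.3% of the 12 in VAL and 57.1% of the 7 in OCI-LY3, where all regions, near genes or not, gave 20.6% and 39.4%. At 8 h, 9 were shared, 25.0% of the 36 in VAL and 90.0% of the 10 in OCI-LY3, against 20.9% and 53.3%. The exception in OCI-LY3 was the region 2905 bp upstream of TNFRSF13B. The 1 decreased region of OCI-LY3 cells after 8 h, over the TNFSF10 TSS, was also in the VAL list of 7, a share of 14.3% there. Over all decreased regions of that time, 11.8% of those in VAL and 31.6% of those in OCI-LY3 were shared.

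The 3 h and 8 h lists of a line share their 0 h libraries and are given side by side only. VAL had 12 increased superfamily regions at 3 h and 36 at 8 h, where the lists held 3545 and 11121 regions in all, and 0 and 7 decreased ones, of 1786 and 9260. OCI-LY3 had 7 and 10 increased ones, of 1852 and 4367, and 1 decreased one at each time, of 1677 and 3463.

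Increased and decreased superfamily regions also differed in composition and place. The increased regions had a median GC content of 59.3%, from 40.6% to 68.5%, and the decreased ones 43.2%, from 38.2% to 62.3%. All increased and all decreased regions of the series had medians of 56.2% and 41.4%, and those linked to any gene 58.1% and 41.7%, so a difference in this direction was found across the series. Of the 38 increased regions, 22 (57.9%) lay within 1 kb of a protein-coding TSS, against 49.0% of the 10296 increased regions that the same rule linked to any protein-coding gene. For 19 of these the TSS was that of a superfamily gene, and for 3, at CD27, TNFRSF12A and TNFSF13, it was that of another gene only. Of the 8 decreased regions 2 (25.0%) lay there, against 14.3% of 6624. The rule itself favours places near a TSS, so regions far from genes are left out of both comparisons. Median widths were 1327 bp and 1582 bp, against 1320 bp and 1300 bp.

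**Figure D4:**
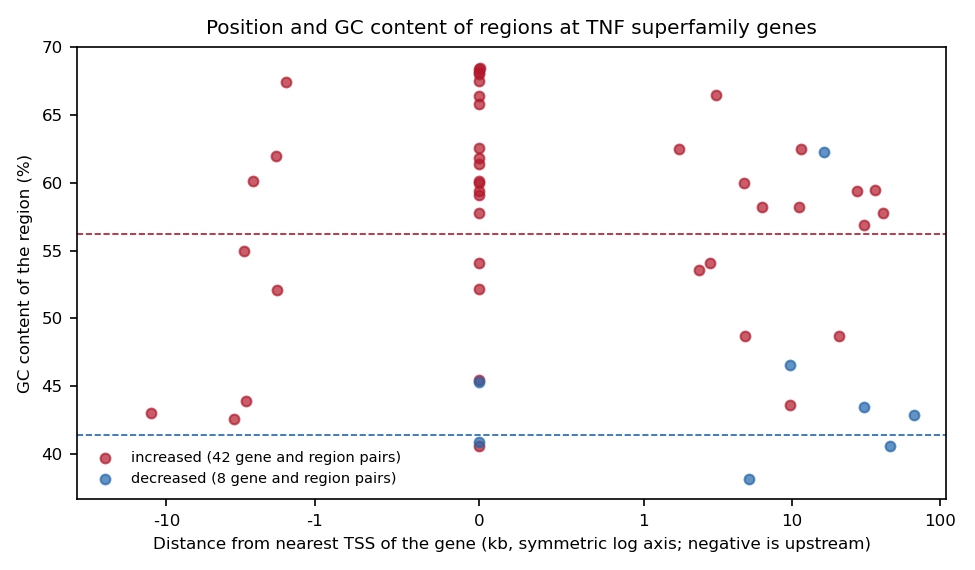
Each point is a superfamily gene and a region linked to it, 42 pairs for increased regions (red) and 8 for decreased regions (blue), by signed distance from the nearest TSS of the gene in kb (symmetric log axis, negative upstream) and GC content in percent. Dashed lines are the medians of all increased (56.2%) and all decreased (41.4%) regions of the series. Points at 0 cover a TSS, and most red points lie above 50% GC while all blue points except that of TNFRSF8 lie below it.

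Consensus sites were searched on both strands in the central 200 bp of each region. The NF-kB consensus was matched in 6 of 38 increased superfamily regions (15.8%), against 9.94% of all increased regions, near genes or not, and in 0 of 8 decreased ones, against 3.64%. Over the whole length of the regions it was matched in 5 of the 8 decreased ones (62.5%), against 19.6% of all, the opposite order. The matches were in regions of CD27 (GGGGATTTCC, chr12:6561143-6561152), TNFRSF8 (GGGACTTCCC, chr1:12119835-12119844), TNFRSF9 (GGGAAATTCC, chr1:8000963-8000972), TNFRSF25 (GGGGCTTCCC, chr1:6526188-6526197), TNFRSF12A (GGGGTGCCCC, chr16:3070898-3070907) and TNF (GGGGGGCCCC, chr6:31543582-31543591). At TNFRSF9 the AP-1 site TGACTCA began at 8000937 on chromosome 1, close to the NF-kB match. The AP-1 consensus TGANTCA was matched in 3 increased regions (7.89%, against 4.21%), at TNFRSF9, TNFRSF12A and TNFSF9, and in 1 of 8 decreased regions (12.5%, against 7.78%), at TNFRSF21. Over whole decreased regions AP-1 also turned, with 12.5% against 37.3%.

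The IRF core site AANNGAAA was matched in 6 increased regions (15.8%, against 14.1%) and in 1 decreased region (12.5%, against 33.4%), the intronic one of TNFSF10, which held 4 matches. Over whole increased regions the IRF order turned, with 55.3% against 59.5%. The cAMP response element TGACGTCA and the ETS site CCGGAAGT were matched in 0 superfamily windows, against 0.636% and 1.98% of all increased and 0.155% and 0.326% of all decreased ones. With so few regions these shares are descriptions, and a match is not evidence that a factor bound.

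The genes that carry TNF receptor signals inside the cell were followed as a list of 29 adaptors, ubiquitin ligases, kinases and caspases. Increased regions were found for 8 (27.6%) in VAL cells after 3 h, 11 (37.9%) in VAL cells after 8 h, and 4 (13.8%) and 10 (34.5%) in OCI-LY3 cells after 3 and 8 h. Over all genes these shares were 15.2%, 34.6%, 9.34% and 17.0%, and over the ligands and receptors 28.9%, 62.2%, 17.8% and 22.2%. Decreased regions were found for 1 (3.45%), 5 (17.2%), 1 (3.45%) and 3 (10.3%) in the same order, against 4.23%, 13.1%, 4.66% and 7.40% of all genes. The signalling genes thus lay near the background for decreased regions, and for increased ones in VAL cells after 8 h.

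Of these signalling genes, TRAF1, TRAF2, TRAF3, TRAF4, TRADD, RNF31, TNFAIP3 and CASP10 had regions called in both lines, at equal coordinates except at TRADD, whose regions in VAL and OCI-LY3 differed. At TRAF1 and TNFAIP3 the shared region was called in VAL cells after 3 h and in OCI-LY3 cells after 8 h, not at the same time. The share of all genes with regions in both lines was not computed. Those of CASP10 were decreased, and those shared at the other genes increased. TRAF1 also had 2 regions decreased in VAL cells after 8 h, one of them over its TSS. The RNF31 region shared by the lines lay 4621 bp upstream of an RNF31 TSS, over the TSS of EMC9. The TRADD region of VAL lay 4887 bp downstream of a TRADD TSS, over that of B3GNT9. The TRADD region of OCI-LY3 covers the TSS of TRADD and of FBXL8. The TRAF4 TSS region was increased in all 4 comparisons. TNFAIP3, which encodes the NF-kB inhibitor A20, had an intronic region increased in VAL cells after 3 h and OCI-LY3 cells after 8 h. CASP10, an initiator caspase of death receptors, had an exonic region decreased in both lines at 8 h. The regions of CASP8, the other such caspase, covered 2 of its TSS and were decreased in VAL cells after 8 h, and this gene was named after its values were seen.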

How the data were processed

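ATAC-seq was done on 24 libraries in 6 groups of 4. Per the study's methods and the submitters' processing notes, reads were mapped by the authors to hg19 (Bowtie2), and those from mitochondria, with several alignments or duplicated were dropped. MACS2 peaks of the single libraries were merged, reads in them were counted with bedtools, and DESeq2 set each treated time against 0 h of its line with thresholds on fold and adjusted p. The study's text gives 2 different values for the latter, and which one made the lists is not given in the sources used here. The 8 deposited lists hold start and end coordinates only. There were 0 columns of per-sample values, so depth is unknown and p-values could not be computed.

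Groups follow the sample labels. Coordinates were compared with GRCh37, with 0 regions outside it, and GENCODE 44 lifted to GRCh37, using TSS of transcripts tagged basic. Regions were linked to genes with Python 3.11.15, numpy 2.4.6, scipy 1.17.1 and pysam 0.24.0, and sequences were read from GRCh37. The linking was tested on simulated data. Alternatives were other distances, other TSS sets, region midpoints and whole regions for motifs, and 2 more were added after the data were seen. All genes with a region are named, and coordinates are given for regions called in both lines at the same time and direction or within 1 kb of the gene's own TSS, for the ligands and receptors only. Printed windows came from regions called in both lines at 8 h, those in most comparisons first, leaving out windows over annotated UTRs, and 1 further window is not reported here. The genes and lists were chosen with earlier results of these data known.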

Additional observations from a re-analysis of the deposited data

How the results depend on the processing

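Of 84 alternative counts and shares of genes and regions, 77 stayed within 1.5 times the reported count or, for shares, within the 95% Wilson interval of the reported share, and 7 moved. Keeping only regions within 5 kb of a TSS, without overlap of the gene body, lowered the genes with a decreased region in VAL cells after 8 h from 6 to 2 (TNFSF10 and TNFSF13B) and in OCI-LY3 cells after 3 h from 1 to 0, while the share of all genes fell from 13.1% to 5.07% and from 4.66% to 1.23%, and it raised the increased share of regions in VAL cells after 8 h to 93.3% and in OCI-LY3 cells after 3 h to 100%. Leaving out chromosomes 16, 17, 19 and 22, an alternative chosen after seeing the data, left 8 genes with an increased region in VAL cells after 3 h, and 4 and 5 in OCI-LY3 cells after 3 and 8 h, by construction with fewer genes. Leaving out regions near the TSS of another gene only, also chosen after seeing the data, left 11, 25, 6 and 8 genes with an increased region in VAL cells after 3 and 8 h and OCI-LY3 cells after 3 and 8 h. The share of all genes under this filter was not computed, so these counts cannot be set against a background. Searched over whole regions, the NF-kB consensus was in 52.6% of increased and 62.5% of decreased superfamily regions, against 44.0% of all increased and 19.6% of all decreased regions. The lack of matches in decreased superfamily regions thus held for the central windows only, and over whole regions 5 of the 8 had one. AP-1 matched 36.8% of increased and 12.5% of decreased superfamily regions over their whole length, against 24.5% and 37.3% of all, and IRF 55.3% and 75.0%, against 59.5% and 86.2%. The order against the background turned for NF-kB and AP-1 in decreased and for IRF in increased regions.

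No paired analysis was possible because values of single libraries were not available. Leaving out each library and a stricter threshold were not run for the same reason. Whether the standard and Fast-ATAC libraries differed was not tested.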

Other observations

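Some genes of the family fall outside the naming rule. RELT, a receptor of the TNF superfamily, had an intronic region increased in VAL cells after 3 and 8 h and in OCI-LY3 cells after 8 h, and a TSS region increased in VAL cells after 8 h. The ectodysplasin receptor gene EDA2R had its TSS region increased in VAL cells after 3 and 8 h, and the ligand gene EDA had its TSS region decreased in VAL cells after 8 h.

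Regions beyond 5 kb were also assigned to the gene with the nearest TSS, up to 100 kb away, a rule chosen after seeing the data. It added 26 regions to the ligands and receptors, 13 increased and 13 decreased. Over all genes the same rule gave 7040 regions, of which 45.2% were increased. CD40LG and FASLG, the genes of CD40 ligand and Fas ligand, which had no region by the 5 kb rule, gained 3 and 2, all decreased in VAL cells after 8 h. Of the other genes without a region by that rule, TNFSF14 gained 1 increased region in VAL, and TNFSF15 gained 1 increased and 2 decreased in VAL. TNFSF13B gained 3 decreased in VAL cells after 8 h, as its TSS was. At FAS a region 15276 bp from the TSS was decreased in VAL cells after 8 h and in OCI-LY3 cells at both times. TNFSF9 and TNFRSF13B gained 3 increased regions each.

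Just outside the 5 kb limit, the TNFRSF18 region lay 5033 bp from TNFRSF4, another region 5494 bp from TNFRSF13C, and the TNF region 5925 bp from LTB.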
